A study of Ovis aries with 30 samples.

Results

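The genes described here are the 9 antigen processing genes B2M, TAP1, TAP2, TAPBP, PSMB8, PSMB9, NLRC5, CIITA and CD74, taken by symbol from the 28524 genes of the count table, in which each of them has its own row. Their counts were followed in perirenal brown adipose tissue (BAT) and in the thyroid of 15 newborn lambs of the Romney breed, 1 lamb per dam. Of these, 6 lambs were kept at 4 °C for 2 days (cold) and 6 at 20–22 °C for 2 days (ambient temperature, AT), and 3 control lambs were sampled around 24 h after lambing per the series record, which is the upper end of the range in the study's text. Cold and AT lambs were therefore about 2 days older than controls, so that time after birth and treatment cannot be told apart against the controls, and the comparison of cold with AT is the one made at a single age. The lambs are numbered within their treatment and a number stands for the same animal in both tissues. Control 2, the lamb that the study left out, entered neither the tests nor the group values unless it is named. RNA came from whole tissue, in which fewer cells of a type and less RNA per cell cannot be told apart.

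Cells show fragments of their own proteins on class I molecules of the major histocompatibility complex (MHC). The proteasome cuts the proteins, and under interferon its standard catalytic subunits are replaced by PSMB8, PSMB9 and PSMB10, which make up the immunoproteasome. TAP1 and TAP2 form the pump that brings peptides into the endoplasmic reticulum, TAPBP (tapasin) holds empty class I molecules at that pump, and B2M is the light chain of the class I molecule. NLRC5 switches class I genes on in the nucleus. CIITA is its relative for class II genes, which are used mainly by macrophages, dendritic cells and B cells, and CD74 (the invariant chain) guides class II molecules to the compartments where they are loaded. Genes of both pathways respond to interferon gamma.

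Depth ranged from 31556500 to 37025998 counts per BAT library and from 25062784 to 30124871 per thyroid library, of which 2 uncharacterised genes, LOC114112617 and LOC114115287, took 43.8 to 76.5% in BAT and 5.18 to 27.8% in thyroid tissue. The tissues carried their defining markers. UCP1, the heat-producing carrier of brown fat, had a median of 7569 normalized counts in BAT and 16.3 in thyroid tissue, and TG (thyroglobulin) had a median of 2152990.2 normalized counts in thyroid tissue and 37.5 in BAT, over 14 lambs each. A few thyroid libraries stood apart in markers of neighbouring tissues. AT 3 and Control 1 held 3288189 and 283716 summed normalized counts of 7 skeletal muscle markers, against 94.9 to 3787 in the other libraries, and AT 2 and AT 3 held 2472 and 1349.6 of the thymocyte markers, against 57.2 to 237 elsewhere. Their part in the results was not tested other than by leaving libraries out.

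In the Rambouillet genome build of the files (Oar_rambouillet_v1.0), 4 of the 9 genes lie side by side. TAP2 (chr20:8861315-8869995), PSMB8 (chr20:8874134-8877285), TAP1 (chr20:8878588-8887709) and PSMB9 (chr20:8887789-8894294) span 32980 bases of the MHC region with 1 further gene between them. TAP1 on the minus strand and PSMB9 on the plus strand are read away from each other, with 79 bases between their starts. TAPBP (chr20:9176115-9185670, minus strand) lies 281820 bases beyond PSMB9. The others are on other chromosomes: B2M at chr7:107524669-107530998, NLRC5 at chr14:26612539-26704213 and CIITA at chr24:9799984-9854918 on the plus strand, and CD74 at chr5:64454615-64462388 on the minus strand. TAP2 shares 155 exonic bases with LOC114109723 and TAPBP shares 29 with ZBTB22, and whether the counting used the strand is not given in the sources used here, so small parts of these 2 counts may belong to the neighbours.

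Levels per length differed widely between the genes and the order differed between the tissues. On the scale shared by both tissues, B2M had the highest level, with 17256 ± 8821 normalized counts per 1000 exonic bases in BAT and 5389 ± 2742 in thyroid tissue (mean ± SD, n = 14 lambs). In BAT, PSMB8 came next (2161 ± 999.6), followed by TAPBP (1027 ± 231) and PSMB9 (1011 ± 635), which did not differ beyond their spread. CD74 (897 ± 955), TAP1 (780.1 ± 516) and TAP2 (519 ± 218) also overlapped with them. In thyroid tissue CD74 stood second at 4779.9 ± 3485, close to B2M and above TAPBP at 696 ± 157. The regulators were lowest in both tissues. NLRC5 had 243 ± 229 and CIITA 22.4 ± 13.8 in BAT, and in thyroid tissue this order did not hold, with 31.7 ± 29.6 for NLRC5 and 38.6 ± 21.8 for CIITA, a difference within their spread.

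**Figure D1:**
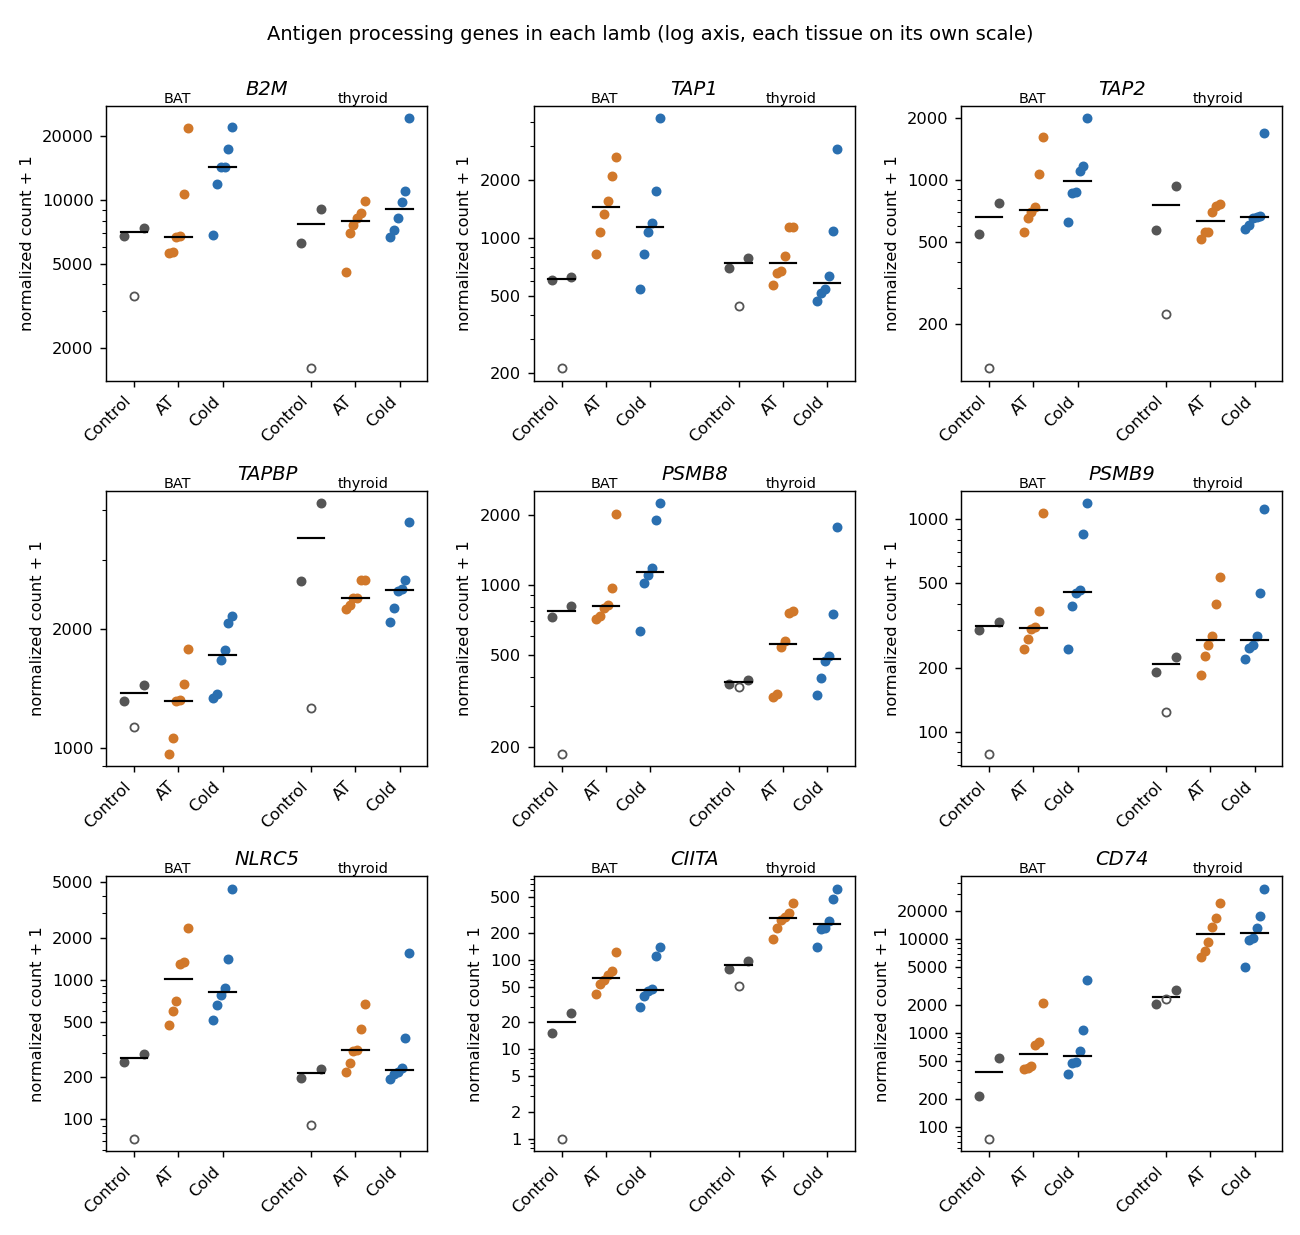
Normalized counts (plus 1, log axis) of the 9 genes, one panel per gene, with BAT on the left and thyroid tissue on the right of each panel. Points are lambs (grey control, orange AT, blue cold), bars are group medians and open circles are Control 2, which was left out of the tests. CD74 and CIITA in thyroid tissue show every treated lamb above all 3 controls.

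The clearest difference against controls was in the class II pair of thyroid tissue, where CD74 and CIITA were upregulated under both treatments. CD74 had 2020.2 and 2876 normalized counts in Control 1 and Control 3. It ranged from 5106 to 34456 in cold lambs (median 11665.5, n = 6) and from 6409 to 24477 in AT lambs (median 11452, n = 6). No treated lamb overlapped with a control, including Control 2 at 2291. The log2FC was 2.62 ± 0.72 in cold against control (SE, edgeR adjusted p = 0.0247) and 2.41 ± 0.71 in AT against control (adjusted p = 0.0299).

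CIITA, the regulator of the class II genes, followed the same order. It had 77.4 and 96.9 normalized counts in Control 1 and Control 3, from 137 to 624 in cold lambs (median 248) and from 172 to 437 in AT lambs (median 289.7). The groups did not overlap, and Control 2 was lower still at 49.9. The log2FC was 1.90 ± 0.53 in cold (adjusted p = 0.0248) and 1.74 ± 0.53 in AT (adjusted p = 0.0316). Both comparisons use the same controls. CD74 and CIITA were the 2 of 9 genes called as upregulated (|log2FC| of at least 1 and adjusted p under 0.05) in each comparison, where 1.89% of all genes were called as upregulated in cold and 1.83% in AT. They were also the 2 of 9 genes with every treated lamb above Control 1 and Control 3, a pattern found in 6.18% of all genes in cold and 5.63% in AT. Leaving out Control 1 or Control 3, which left 1 control to compare with, took the adjusted p of both genes to between 0.107 and 0.261, with log2FC between 1.58 and 2.91. With all 3 controls, and without the thyroid libraries of AT 2 and AT 3, both genes stayed called.

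Over the 12 treated lambs, CIITA and CD74 rose and fell together in thyroid tissue. Pearson's r of their log2 normalized counts was 0.94. Cold 4 was highest and Cold 5 lowest for both genes. In BAT r was 0.75, and Cold 4, AT 2 and Cold 1 were the highest 3 lambs for both genes. The r values describe these libraries, in each of which both genes share a size factor.

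**Figure D2:**
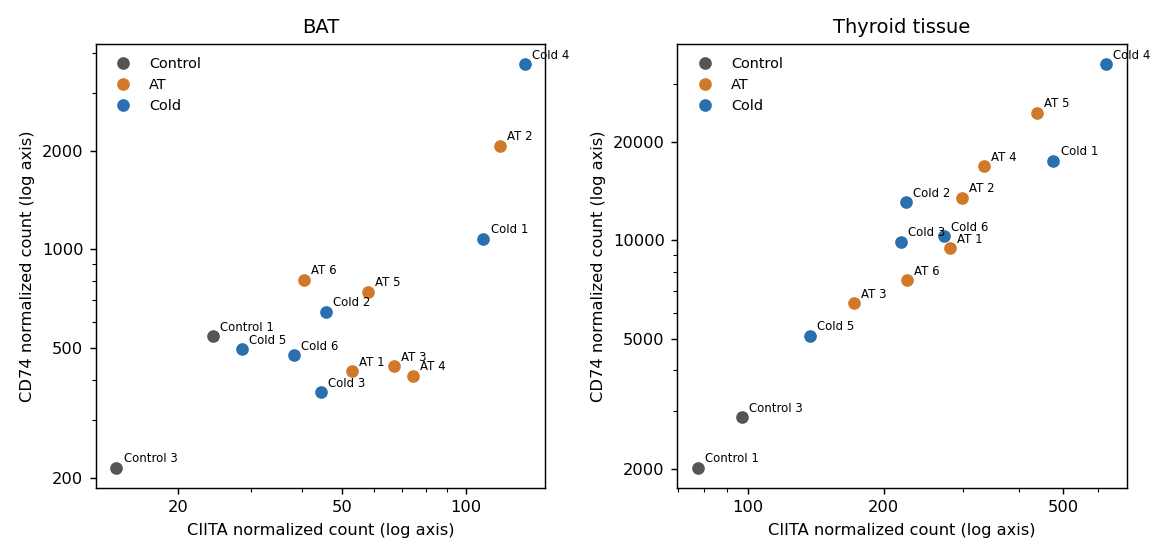
CIITA against CD74 in each lamb, in BAT (left) and thyroid tissue (right), as normalized counts on log axes. In thyroid tissue the points line up from Control 1 at the lower left to Cold 4 at the upper right, and in BAT they separate into 3 lambs with high values and the rest.

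Some macrophage markers were upregulated in treated thyroid tissue beside the class II pair. Of 7 tested macrophage markers, 5 were upregulated in cold (C1QC, C1QA, AIF1, CSF1R and TYROBP) and 3 in AT (C1QC, C1QA and AIF1), where 1.89% and 1.83% of all genes were. These calls depended on Control 3, without which 1 control is left to compare with. C1QA and C1QC, chains of the complement component that macrophages secrete, had a log2FC of 2.98 ± 0.48 and 3.18 ± 0.52 in cold. Summed normalized counts of the list were 1735 and 1609 in Control 1 and Control 3, from 2957 to 6242 in AT and from 3482 to 9425 in cold, again without overlap. Their part in the rise of CD74 and CIITA was not tested. In BAT, 0 of the 7 markers were upregulated, where 0.577% of all genes were in cold and 2.82% in AT. In AT, 1 of the 7 was downregulated in BAT, where 3.19% of all genes were. Among treated lambs the summed list and CD74 had r = 0.57 in thyroid tissue, against 0.82 in BAT. For the class I genes, r to the same list lay between 0.53 (NLRC5) and 0.69 (PSMB9) in thyroid tissue. In BAT it lay between 0.48 (TAPBP) and 0.68 (PSMB9). Markers of white blood cells in general had a median log2FC of 0.67 in cold and 0.56 in AT thyroid tissue, against 1.41 and 1.44 for the macrophage markers. None of 6 was called in either thyroid comparison, which at the shares of all genes says little about so short a list. Their summed counts were 3559 and 5457 in the controls, 2380 to 4799.5 in AT and 3379 to 5736 in cold. Among treated lambs, r of this sum to CD74 was -0.14 in thyroid tissue and 0.82 in BAT. Of 8 T cell markers, CD2 was upregulated in cold (log2FC 2.83 ± 0.71) and in AT (2.45 ± 0.70). The summed T cell list was 242 and 188 in the controls, 254.5 to 665 in cold and 169 to 2945 in AT, with AT 2 and AT 3 highest. Of 4 dendritic cell markers, XCR1 was upregulated in cold (log2FC 2.20 ± 0.66) and not in AT (1.49 ± 0.64, adjusted p = 0.107). The summed dendritic cell list overlapped between the groups, with 497 to 820 in the controls, 379 to 662 in AT and 495 to 760 in cold. The 1 testable B cell marker was not called in cold or in AT.

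A class II chain gene was upregulated beside CD74 in thyroid tissue. OVAR-DRB1, a beta chain chosen after its values were seen, had a log2FC of 2.09 ± 0.46 in cold (adjusted p = 0.00936) and 1.42 ± 0.44 in AT (adjusted p = 0.0362), and was not called in BAT (0.58 ± 0.89 and 0.15 ± 0.88). Class II chains have near-identical copies, so its counts may include reads of others. Of 30 listed genes, 11 were in the table under these names and were tested. Of these, none was upregulated in thyroid tissue and 2 were downregulated under both treatments, against 6.15% of all genes called as downregulated in cold and 5.98% in AT. These were the lysosomal proteases CTSB (log2FC -1.005 ± 0.254 in cold and -1.21 ± 0.25 in AT) and CTSH (-1.56 ± 0.27 and -1.88 ± 0.26). Under TMM or median-of-ratios scaling 1 of the 2 was called, and without Control 3 neither was. The protease CTSS, which trims the invariant chain in antigen-presenting cells, had a log2FC of 0.98 ± 0.31 in cold with an adjusted p of 0.037, just short of the fold threshold. Of the 11 genes, 6 had a positive log2FC in cold and 4 in AT. The median log2FC of the list was 0.04 in cold and -0.28 in AT, beside -0.28 for all genes in both comparisons.

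The class I genes of thyroid tissue did not pass the test against controls. In cold, log2FC were 1.13 ± 0.79 for NLRC5, 1.05 ± 0.61 for PSMB9, 0.88 ± 0.58 for PSMB8, 0.54 ± 0.43 for B2M, 0.46 ± 0.62 for TAP1 and 0.11 ± 0.37 for TAP2, and TAPBP was at -0.38 ± 0.20. The adjusted p of these 7 genes lay between 0.198 and 0.858. In AT, the log2FC ran from 0.79 ± 0.78 for NLRC5 to -0.48 ± 0.20 for TAPBP (adjusted p = 0.0983, the lowest of the 7). Much of the cold values rested on Cold 1. Its NLRC5 reached 1564 normalized counts in thyroid tissue, where the other cold lambs had 194 to 384 and the controls 229.9 and 197. Without Cold 1, the log2FC of TAP1 in cold went to -0.20 and that of TAP2 to -0.25.

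Chaperones that serve class I assembly among many other proteins were lower in treated thyroid tissue. The 23 tested genes of the wider class I list had a median log2FC of -0.18 in cold and -0.17 in AT, beside -0.28 for all genes. Of all genes, 6.15% were called as downregulated in cold and 5.98% in AT. In the list none was upregulated, and 3 genes were downregulated in cold and in AT. They were CALR (log2FC -1.92 ± 0.38 in cold, -1.98 ± 0.38 in AT), CANX (-1.27 ± 0.26 and -1.46 ± 0.26) and PDIA3 (-1.43 ± 0.28 and -1.61 ± 0.28), general folding factors of the endoplasmic reticulum. Under TMM or median-of-ratios scaling 2 of the 3 remained called in cold, with all 3 controls none did in cold, and without Control 3 none did in either comparison. The scaling also moved the whole thyroid comparison, since the median log2FC of all genes was -0.28 with the reference genes ACTB, RPL19 and HUWE1 and 0.02 (cold) and 0.05 (AT) with TMM factors. B2M and TAP2 in AT against control, at -0.01 and -0.23 with the reference genes, were at 0.34 and 0.13 with TMM factors.

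**Figure D3:**
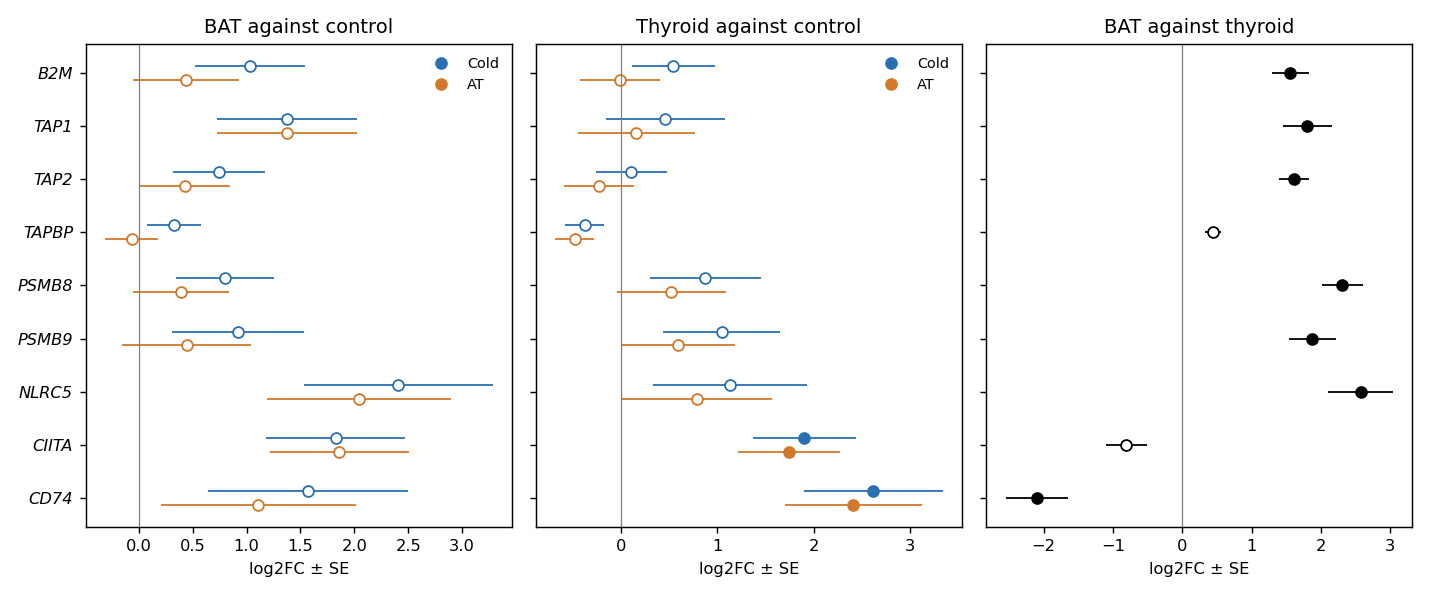
log2FC with SE of the 9 genes in BAT against control (left), thyroid tissue against control (middle) and BAT against thyroid tissue (right). Filled points were called, open points were not. In the middle panel CD74 and CIITA are filled under both treatments, and in the right panel 6 class I genes are filled to the right of 0 and CD74 to the left.

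In BAT none of the 9 genes was called against controls in edgeR's test, and the highest values belonged to the regulators. NLRC5 had 256 and 291 normalized counts in Control 1 and Control 3, from 516 to 4509.9 in cold lambs (median 823) and from 473 to 2351 in AT lambs (median 1007). No treated lamb was as low as a control. The log2FC was 2.41 ± 0.88 in cold (adjusted p = 0.162) and 2.04 ± 0.86 in AT (adjusted p = 0.149). CIITA had 24.2 and 14.1 normalized counts in the controls, from 28.5 to 139 in cold and from 40.4 to 121 in AT, also without overlap, with a log2FC of 1.83 ± 0.64 (adjusted p = 0.145) and 1.86 ± 0.64 (adjusted p = 0.0797).

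TAP1, the pump subunit, had 603 and 626 normalized counts in the 2 BAT controls. All AT lambs were higher (830.3 to 2646, median 1447), whereas Cold 2 at 543 was below both controls and the other cold lambs had 825 to 4199. The log2FC was 1.38 ± 0.65 in cold (adjusted p = 0.278) and 1.37 ± 0.65 in AT (adjusted p = 0.196). CD74 had 544 and 215 normalized counts in the controls, from 367 to 3686 in cold and from 412 to 2074 in AT, with overlapping groups and a log2FC of 1.57 ± 0.93 and 1.11 ± 0.90 (adjusted p = 0.396 and 0.467). B2M was at 1.03 ± 0.51 in cold and 0.43 ± 0.49 in AT, and PSMB8, PSMB9 and TAP2 were between 0.39 and 0.92. TAPBP was closest to 0, with 0.33 ± 0.25 in cold and -0.07 ± 0.25 in AT, where TMM scaling gave 0.04.

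The count of 0 of 9 in BAT stands beside 1.21% of all genes called in cold and 6.02% in AT. At an unadjusted p under 0.05, NLRC5 and CIITA passed in both comparisons, as did 18.1% of all genes in cold and 26% in AT. DESeq2's Wald test called NLRC5 and CIITA in cold (adjusted p = 0.0459 and 0.0402) and CIITA in AT (adjusted p = 0.0187). With all 3 controls, edgeR called NLRC5 in cold and NLRC5 and CIITA in AT, and without Cold 1 it called NLRC5 in AT (adjusted p = 0.0428). Groups that did not overlap, with the treated lambs higher, were found for 2 of 9 genes in cold (NLRC5 and CIITA) and for 3 in AT (with TAP1), against 8.89% and 8.96% of all genes. The median log2FC over the 9 genes was 1.03 in cold and 0.44 in AT, beside -0.10 and -0.03 for all genes, and 9 and 8 of the 9 had a positive log2FC. Of the wider class I list in BAT, CALR (log2FC -1.27 ± 0.27) and LNPEP (-1.27 ± 0.35) were downregulated in AT, where 3.19% of all genes were, and none was called in cold.

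Between cold and AT lambs, which were of one age, no difference of the 9 genes passed the test in either tissue. In BAT the log2FC of cold against AT ran from -0.04 ± 0.39 for CIITA to 0.60 ± 0.34 for B2M, with adjusted p from 0.38 upward, and 0.275% of all genes were called. B2M had a median of 14343 normalized counts in cold BAT and 6721 in AT BAT, but AT 2 at 21855 stood next to the highest cold lamb at 22034 and Cold 2 at 6804 stood among the AT lambs. TAPBP had the lowest p (log2FC 0.40 ± 0.17, unadjusted p = 0.0372, adjusted p = 0.38). In thyroid tissue all 9 log2FC lay between 0.10 and 0.55 with adjusted p from 0.916 upward, and 0 of all tested genes were called by edgeR, with 5.4% at an unadjusted p under 0.05 and none of the 9 among them. DESeq2's Wald test called none of the 9 in either tissue. Leaving out Cold 1 turned 6 of the 9 thyroid values negative (TAP1, TAP2, TAPBP, PSMB8, PSMB9 and NLRC5), whereas B2M, CIITA and CD74 stayed above 0.

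Some targets of type I interferon, a list of antiviral genes induced with class I genes, were higher in treated lambs of both tissues. In BAT, 7 of 25 tested type I interferon targets were upregulated in cold and 9 of 25 in AT, where 0.577% and 2.82% of all genes were. IFI6 had a log2FC of 5.93 ± 0.93 in cold and 5.04 ± 0.88 in AT, and ISG15, a ubiquitin-like modifier, of 5.86 ± 1.05 and 4.91 ± 1.01. In thyroid tissue 8 of 25 were upregulated in cold and 3 of 25 in AT, where 1.89% and 1.83% of all genes were. Among them were IFI6 (5.08 ± 0.85 and 4.82 ± 0.84) and IFIT1 (4.34 ± 1.10 and 3.38 ± 1.04). Median log2FC of the list were 2.33 and 1.72 in BAT and 2.26 and 1.54 in thyroid tissue. The summed list did not overlap between treated lambs and controls in either tissue, with 4529.9 and 5158 in BAT controls against 8667 to 52757 in treated BAT, and 7795 and 9718 in thyroid controls against 12822 to 80569. The number called depended on the processing and on single libraries. In BAT it was 18 in cold and 12 in AT under TMM or median-of-ratios scaling, 21 and 14 with DESeq2, and 22 and 19 with all 3 controls. In thyroid tissue it was 8 and 2 under either scaling, 16 and 11 with DESeq2, and 15 and 9 with all 3 controls. Without Cold 1 it was 13 and 16 in BAT and 15 and 16 in thyroid tissue (cold and AT), and without Control 1 or Control 3 it was at most 1 in each comparison. Fits of a treatment and the controls alone called 0 in cold and 13 in AT in BAT, and 1 in cold and 13 in AT in thyroid tissue.

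Of 11 tested genes of interferon gamma signalling, none was called in BAT, where 1.21% of all genes were called in cold and 6.02% in AT. At these shares so short a list may hold none. In thyroid tissue the chemokine CXCL10 was the 1 of 10 called, as upregulated under both treatments. Of all genes there, 1.89% were called as upregulated in cold and 1.83% in AT. IFNG itself had no count in 13 of 14 BAT libraries and in 11 of 14 thyroid libraries. Among treated lambs, r between the summed type I interferon targets and the class I genes lay between 0.52 (B2M) and 0.81 (TAP2) in BAT and between 0.60 (PSMB8) and 0.82 (TAP2) in thyroid tissue. For CD74 the same r was 0.20 and 0.17. Some lists of cell markers tracked some class I genes more closely, depending on the list and the tissue. In BAT, r to the summed T cell markers was 0.81 for B2M and 0.87 for PSMB8 and PSMB9, against 0.52, 0.73 and 0.75 to the interferon targets. In thyroid tissue, r to the pan-leukocyte markers was 0.81 for B2M and 0.75 for PSMB8, against 0.61 and 0.60. The T cell markers there had r of -0.06 for B2M, 0.23 for PSMB8 and 0.25 for PSMB9. In BAT the pan-leukocyte markers had r of 0.68, 0.62 and 0.58 to these genes. The part of these cells in the results was not tested. All of these share the size factor of the library and Cold 1, which had the highest summed count of the list in both tissues.

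The balance of immunoproteasome to standard proteasome subunits was followed as the log2 ratio of counts within a library, which does not depend on scaling. In thyroid tissue, PSMB8 to PSMB5 was at -2.78 and -3.80 in Control 1 and Control 3, from -2.05 to 0.21 in cold and from -2.48 to -0.55 in AT, without overlap. The mean difference was 1.98 in cold (exact permutation test, 2-sided, p = 0.0357, adjusted over 18 tests 0.214) and 1.81 in AT (exact permutation test, p = 0.0357, adjusted 0.214), and 0.0357 is the smallest p that 2 controls against 6 lambs allow. The denominator moved too, since PSMB5 was downregulated in thyroid tissue (log2FC -1.44 ± 0.33 in cold and -1.33 ± 0.33 in AT). Control 2, outside the test, was at -1.70 and within the treated range. PSMB9 to PSMB6 differed by 1.61 in cold and 1.24 in AT (exact permutation test, p = 0.0714 and 0.107), and PSMB10 to PSMB7 by 1.21 and 0.999 (exact permutation test, p = 0.0357 and 0.25).

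In BAT, PSMB8 to PSMB5 was at 0.49 and 0.18 in the controls, from 0.14 to 2.39 in cold and from 0.50 to 1.81 in AT, with a mean difference of 0.92 and 0.54 (exact permutation test, p = 0.25 for both). PSMB10 to PSMB7 differed by 0.77 in cold and 0.49 in AT (exact permutation test, p = 0.0714 for both). Control 2, outside these tests, was far below both other controls in BAT, at -2.17 for PSMB8 to PSMB5, -4.23 for PSMB9 to PSMB6 and -1.85 for PSMB10 to PSMB7. With all 3 controls the PSMB8 to PSMB5 difference was 1.76 in cold and 1.38 in AT in BAT, against 1.45 and 1.28 in thyroid tissue, so the order of the tissues depended on that lamb, and the difference between the tissues was not tested. None of the 18 tests passed after adjustment, with 2 or with 3 controls. With 2 controls, the tests against control could not pass it on their own. The smallest p of their exact permutation test, 0.0357, is too high for an adjustment over 18 tests. Those of cold against AT did not pass before adjustment either (unadjusted exact permutation p of 0.16 or more). All 3 ratios were higher in BAT than in thyroid tissue of the same lamb, in 14 of 14 lambs for PSMB8 to PSMB5 (median difference 2.54) and PSMB9 to PSMB6 (2.21) and in 13 of 14 for PSMB10 to PSMB7 (0.53).

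**Figure D4:**
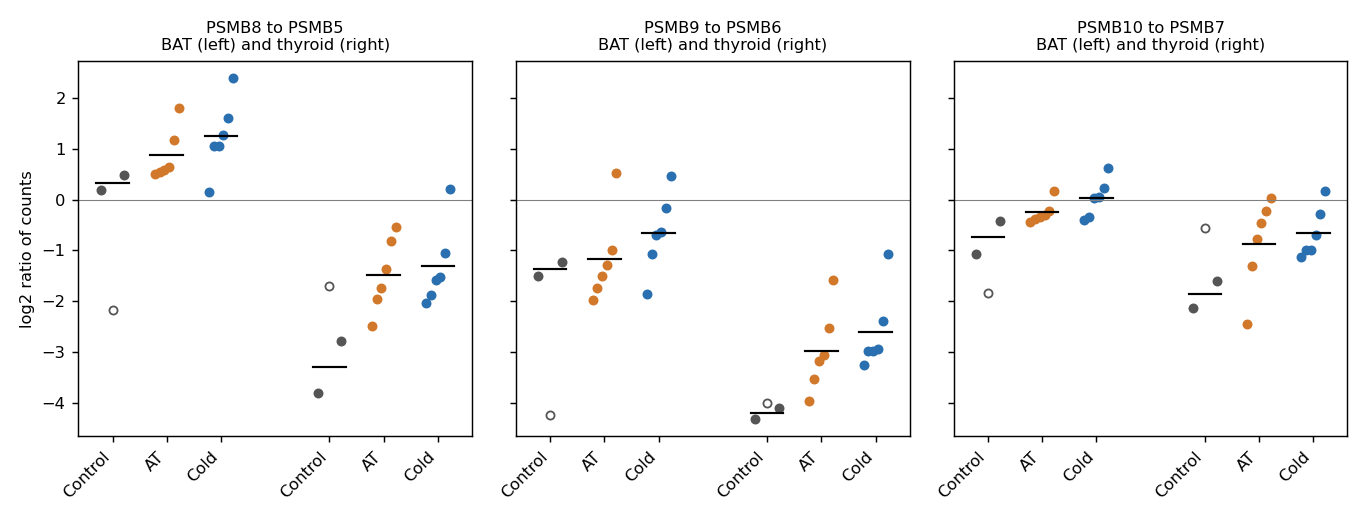
log2 ratio of counts of each immunoproteasome subunit to its standard counterpart, with BAT on the left and thyroid tissue on the right of each panel. Points are lambs, bars are group means without Control 2 (open circle). In thyroid tissue the PSMB8 to PSMB5 ratio of Control 1 and Control 3 lies below that of every treated lamb.

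Between the tissues, the class I genes were higher in BAT and CD74 was higher in thyroid tissue. Over 14 lambs in one fit, log2FC of BAT against thyroid tissue were 2.57 ± 0.47 for NLRC5, 2.31 ± 0.30 for PSMB8, 1.88 ± 0.34 for PSMB9, 1.80 ± 0.35 for TAP1, 1.61 ± 0.22 for TAP2 and 1.56 ± 0.26 for B2M. All 6 were called (adjusted p of 7.59e-05 or less) and each was higher in BAT in 14 of 14 lambs. CD74 had a log2FC of -2.10 ± 0.45 (adjusted p = 0.000233) and was lower in BAT in all 14 lambs. TAPBP (0.45 ± 0.12) and CIITA (-0.81 ± 0.30) passed the adjusted p (0.00166 and 0.0175) but not the fold threshold, and CIITA was called under median-of-ratios scaling at -1.12. Differences between these tissues were common: 25% of all genes were called as higher in BAT, 14.2% as lower, and 71.0% passed the adjusted p alone. The median log2FC of all genes was 0.24.

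Of the wider class I list, PSMB10 (1.29 ± 0.18) and IRF1 (1.11 ± 0.20) were higher in BAT and RFX5 (-1.31 ± 0.13) and NFYC (-1.13 ± 0.09), which belong to the complexes at MHC promoters, were lower, out of 23 tested. These 2 higher and 2 lower stand beside 25% and 14.2% of all genes. The median log2FC of the list was 0.26, beside 0.24 for all genes. With TMM or median-of-ratios factors, 4 genes of the list were lower. Of the macrophage list, 4 of 7 genes were called as higher in BAT, where 25% of all genes were. Under TMM or median-of-ratios scaling it was 2 of 7. The part of macrophages in the tissue difference of CD74 was not tested. The change against controls was not shown to differ between BAT and thyroid tissue for any of the 9 genes. In cold the difference of the log2FC (BAT minus thyroid tissue) ran from -1.01 ± 1.12 for CD74 to 1.28 ± 1.13 for NLRC5 with adjusted p from 0.36 upward, and 0.182% of all genes were called. In AT it ran from -1.27 ± 1.12 for CD74 to 1.29 ± 1.13 for NLRC5 with adjusted p from 0.468 upward (1.66% of all genes called), and for cold against AT 0 genes were called, with 7.87% of all genes and none of the 9 at an unadjusted p under 0.05. DESeq2's Wald test called none of the 9 in these 3 tests.

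Lambs of one treatment varied widely, and the same lambs were highest in both tissues. Cold 1 had the highest level among the 12 treated lambs for 6 of the 9 genes in BAT and for 7 of 9 in thyroid tissue, and Cold 4 for the remainder, CIITA and CD74 in both tissues and B2M in BAT. NLRC5 in Cold 1 was 5.48 times the median of treated lambs in BAT and 5.57 times in thyroid tissue. AT 2 came next in BAT for 8 of the 9 genes, TAPBP being the exception. Cold 1 also held 52757 and 80569 summed normalized counts of the type I interferon targets, against 8667 to 23365 and 12822 to 25731 in the other treated lambs.

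The level of a gene in BAT was compared with its level in thyroid tissue of the same lamb over the 12 treated lambs. NLRC5 had Pearson's r = 0.92 (permutation test, p = 0.00014, adjusted over 14403 genes 0.0331) and Spearman's rho = 0.71 (permutation test, p = 0.013). TAP1 had r = 0.87 (permutation test, p = 0.00023, adjusted 0.0404) and rho = 0.90 (permutation test, p = 0.00022). Without the 2 lambs farthest from the median in BAT, r was 0.69 for NLRC5 (without Cold 1 and AT 2) and 0.77 for TAP1 (without Cold 1 and Cold 2). Within treatments, r of NLRC5 was 0.96 in cold (exact permutation test over 6 lambs, p = 0.0236) and 0.89 in AT (exact permutation test, p = 0.0208), and r of TAP1 was 0.94 (exact permutation test, p = 0.00833) and 0.68 (exact permutation test, p = 0.151).

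The other members correlated between tissues without passing the adjustment over all genes. PSMB9 had r = 0.78, CIITA 0.75, TAP2 0.68, PSMB8 0.65 and CD74 0.63 (permutation p from 0.00353 to 0.0282, adjusted 0.131 to 0.332), and B2M (0.44) and TAPBP (0.38) were lower. CIITA kept r = 0.71 without Cold 4 and AT 2, whereas without Cold 1 and AT 2 r fell to 0.41 for PSMB9, 0.26 for TAP2 and 0.25 for PSMB8, and without Cold 4 and AT 2 it fell to 0.39 for CD74. These 4 relations rest on those lambs. Within cold lambs, r was 0.96 for CIITA (exact permutation test, p = 0.00694) and 0.87 for CD74 (exact permutation test, p = 0.0194). Within AT lambs, r was 0.17 for CIITA (exact permutation test, p = 0.764) and 0.21 for CD74 (exact permutation test, p = 0.724). For comparison, the median r over all 14403 genes was 0.18, and 16.6% of all genes and 7 of the 9 had r above 0.5. Leaving out 1 lamb kept r of NLRC5 between 0.83 and 0.94 and that of TAP1 between 0.78 and 0.92. It took the adjusted p of NLRC5 above 0.05 for each lamb other than AT 3, and that of TAP1 for each lamb other than AT 4, with 0.124 and 0.186 without Cold 1.

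**Figure D5:**
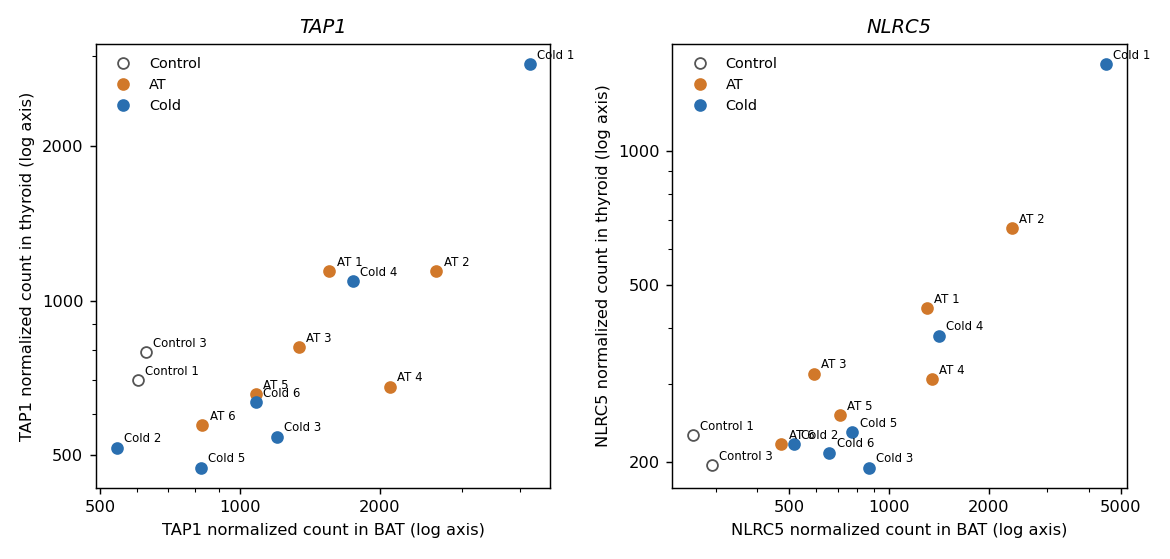
Normalized counts of TAP1 (left) and NLRC5 (right) in BAT against thyroid tissue of the same lamb, on log axes, with controls as open circles. Cold 1 is at the upper right for both genes and the other treated lambs follow the same direction, with r = 0.87 for TAP1 and 0.92 for NLRC5 over the 12 treated lambs.

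Within a tissue, the class I genes varied together from lamb to lamb. Over the 12 treated lambs the 21 pairs among the 7 class I genes had a median r of 0.78 in BAT (0.37 to 0.98) and 0.86 in thyroid tissue (0.74 to 0.97), and the neighbours PSMB8 and PSMB9 had the highest r in both. The class I genes followed CIITA and CD74 less closely, with a median r of 0.65 over 14 pairs in BAT and 0.40 in thyroid tissue. These values describe libraries that share size factors and Cold 1.

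The named genes whose pattern was most like that of TAP1 over the 12 treated lambs were NLRC5 (r = 0.93), APRT, STAT2, TRIM26 and NSMCE2 (0.90) in BAT, among 14905 genes. In thyroid tissue, among 16122 genes, they were NLRC5 (0.96), PSMB9 (0.95), PSMB8 (0.94), TMEM106A and PSMB10 (0.89). NLRC5 led both lists. The pattern of CD74 was most like that of OVAR-DRB1, a class II beta chain gene, in BAT (r = 0.95), followed by CD86, CFD, FCER1G and CD38 (0.89). In thyroid tissue the genes most like it included MOK (0.94), CIITA (0.94), SLC9A3R1 (0.94) and SLC25A22 (0.92), none of which was among those named for BAT.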

How the data were processed

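RNA of 30 libraries (15 lambs, BAT and thyroid tissue) was analysed from counts per gene that the authors deposited without normalization. They trimmed read pairs with Trimmomatic 0.39, aligned them with STAR 2.7.7a to Oar_rambouillet_v1.0 and counted with featureCounts (Subread 2.0.0), including reads that map to several places. Multimapped reads and the strand setting, which is not given in the sources used here, can affect overlapping or duplicated genes. Exonic lengths and positions come from the same deposited table, with chromosome numbers matched through RefSeq gene names. Of the count columns, 0 were unused.

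Each tissue was scaled by DESeq2 size factors from ACTB, RPL19 and HUWE1, as in the study, and normalized counts are counts divided by these. A minimum of 10 reads in 10 or more libraries was required for testing by edgeR 4.0.16 quasi-likelihood fits with all 3 groups and 2 controls (14905 genes in BAT, 16122 in thyroid tissue), 2-sided, with Benjamini-Hochberg adjustment and calls at |log2FC| of at least 1 and adjusted p under 0.05. The tissues were compared in one fit of 28 libraries with joint size factors. Control 2 was recognised as the omitted lamb because the study's normalized values are proportional to the counts of the other 2 controls. Ratios used log2(count + 1) and exact permutation tests, and correlations used log2(normalized count + 1) and 100000 permutations. Alternatives were TMM and median-of-ratios scaling, DESeq2 1.42.0, all 3 controls, no filter, adjusted p alone, 2 groups only, each lamb left out, the lamb as a replicate block, a pseudocount of 0.5 (ratios), deviations from treatment means (correlations) and, added after the data were seen, thyroid tissue without AT 2 and AT 3. Tests were tried on simulated data.

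The libraries of a lamb are paired by its number in the labels, and their deviations from the group means correlated over genes at -0.003 to 0.37. Replicates within a group were never identical and differed beyond counting noise (chi-square per gene of 38.3 or more). CIITA had a count of 0 in BAT of Control 2 and no other of the 9 genes reached 0 in a library. The members, lists and rules for named genes (the 9 genes, called genes of the lists, and the 5 named genes most like TAP1 and CD74) were chosen with earlier results of these data known. Some genes that these rules would name are not reported here.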

Additional observations from a re-analysis of the deposited data

Results flagged for a closer look

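Within groups of 6 lambs, 4 of 36 combinations of gene, tissue and treatment had 1 lamb whose gap to the next, on the log2 scale and divided by the range of the group, was above Dixon's 95% critical value for 6 samples. For independent groups about 1 in 20 would be flagged, but these combinations share lambs, so no excess can be read from the count. The genes flagged together also varied together over the treated lambs (r = 0.98 for PSMB8 and PSMB9 in BAT, 0.86 for TAP2 and NLRC5 in thyroid tissue). In BAT the flagged lamb was AT 2, the highest AT lamb for PSMB8 (2011 normalized counts, gap over range 0.708) and PSMB9 (1068, 0.724). In thyroid tissue it was Cold 1, the highest cold lamb for TAP2 (1692, 0.871) and NLRC5 (1564, 0.673).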

How the results depend on the processing

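The thyroid calls against control depended on having both controls. The 2 calls in thyroid tissue (CD74 and CIITA, against control) were kept under every alternative that retained both controls, and the number called with 1 lamb left out was 0 to 2 in cold and 0 to 2 in AT, the 0 coming from leaving out Control 1 or Control 3, where the lone control is assumed to vary like the other groups. In BAT, DESeq2 called 2 genes in cold and 1 in AT against control, all 3 controls gave 1 in cold (NLRC5) and 2 in AT (NLRC5 and CIITA), and leaving out 1 lamb gave 0 to 1 in AT, the 1 being NLRC5 without Cold 1. For the correlation between tissues, 2 genes passed over 12 lambs and 0 to 1 with 1 lamb left out. With the lamb as a replicate block, 7 genes were called between BAT and thyroid tissue and 0 in each of the 3 tests of a tissue difference, so the pairing changed no call. The cause of these changes was not tested.

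Directions turned as follows. The tissue difference of CD74 in cold against control, -1.01, was 0.056 without Control 1, and over all alternatives 4, 3 and 6 of the 9 genes turned in the tissue difference of cold against control, AT against control and cold against AT. Against control in AT, TAPBP in BAT was 0.037 (TMM), 0.021 (median-of-ratios) and 0.092 (all 3 controls), B2M in thyroid tissue was 0.34, 0.34 and 0.44, and TAP2 in thyroid tissue was 0.13, 0.13 and 0.16. TAP1 in BAT, cold against AT, was -0.00701 with all 3 controls and -0.054 with 2 groups only. With 1 lamb left out, log2FC of cold against AT in BAT ran from -0.56 to 0.21 for TAP1, -0.42 to 0.71 for NLRC5, -0.42 to 0.20 for CIITA and -0.44 to 0.99 for CD74. In thyroid tissue they ran from -0.37 to 0.45 for TAP1, -0.029 to 0.42 for TAP2, -0.031 to 0.16 for TAPBP, -0.18 to 0.50 for PSMB8, -0.12 to 0.67 for PSMB9, -0.58 to 0.60 for NLRC5, -0.15 to 0.32 for CIITA and -0.24 to 0.47 for CD74. Against control they ran in cold thyroid tissue from -0.20 to 0.60 for TAP1, -0.25 to 0.52 for TAP2 and -0.67 to 0.0041 for TAPBP, in AT thyroid tissue from -0.25 to 0.30 for B2M and -0.54 to 0.18 for TAP2, and in AT BAT from -0.17 to 0.028 for TAPBP and -0.066 to 0.58 for PSMB9. The mean difference of log2 ratios ran from -0.14 to 0.36 for PSMB8 to PSMB5 and -0.10 to 0.39 for PSMB10 to PSMB7 (thyroid tissue, cold against AT) and from -0.13 to 0.37 for PSMB9 to PSMB6 (BAT, AT against control). The correlation of TAPBP between tissues ran from -0.068 to 0.54.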
